A study of Homo sapiens and Canis lupus familiaris with 27 samples.

Results

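The cytosolic heat shock chaperones described here are 10 genes: the HSP70 genes HSPA1A, HSPA1B and HSPA8, the HSP110 gene HSPH1, the J-domain genes DNAJB1 and DNAJA1, the small heat shock protein gene HSPB1, the HSP90 genes HSP90AA1 and HSP90AB1, and the HSP70 co-chaperone gene BAG3. A member was every row of a gene count table whose name was one of these symbols. The rule used names only, but the list was chosen with earlier results of these data known. All 10 were listed in the tables of both human cell lines, out of 25300 gene names in the series. The canine table listed 6 of them, namely HSPA8, HSPH1, DNAJB1, HSPB1, HSP90AA1 and BAG3, and no value is given for the other 4 in canine cells.

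Cytosolic chaperones bind unfolded or partly folded proteins and keep them from aggregating. HSP70 proteins take up such proteins with the help of J-domain partners and release them through nucleotide exchange factors such as HSP110 and BAG proteins, HSP90 finishes the folding of kinases and steroid hormone receptors, and small heat shock proteins hold unfolded proteins without using ATP. Most of these genes are under heat shock factor HSF1, which binds inverted repeats of GAA upstream of them when unfolded proteins accumulate.

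RNA was sequenced from PC-3 and LNCaP, human prostate adenocarcinoma cell lines from a bone marrow and a lymph node metastasis, and from CT1258, a canine prostate adenocarcinoma cell line. Each line received 15 µM PDA-66, an indolylmaleimide, for 12 h or 24 h, or 0.15% (v/v) DMSO, the solvent, for 24 h. Each group had 3 samples, described by the study as independent biological replicates, except that 2 PC-3 DMSO samples (replicates 2 and 3) were used here, which left 26 samples. The p-values measure the spread between these samples. Each line is 1 population of cultured cells and grew in its own medium (DMEM/Ham's F-12 for PC-3, RPMI 1640 for LNCaP, medium 199 for CT1258), so that species, line and medium cannot be told apart. Both PDA-66 times were set against the same DMSO samples, labelled 24 h, so the 12 h and 24 h differences share their controls and 12 h in culture without PDA-66 was not sampled.

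Total counts per sample ran from 14650839 to 18091755 in PC-3, from 11923105 to 14741883 in LNCaP and from 7203534 to 20976950 in CT1258, where the DMSO samples had a mean total 2.64 times that of the PDA-66 samples. Values are counts scaled to library size after TMM normalization (CPM). In LNCaP the luminal prostate markers KLK3, KLK2 and TMPRSS2 exceeded 1 CPM. In PC-3 the 4 epithelial markers did, whereas KLK3, KLK2 and TMPRSS2 were at or below 1 CPM, and in CT1258 the 1 epithelial marker listed, EPCAM, lay between 0 and 0.262 CPM and TMPRSS2 was at or below 1 CPM. KLK2 had a mean of 5.91 CPM in CT1258 DMSO and was at 0 in both PDA-66 groups. In PC-3 the summed epithelial markers were lower after PDA-66 (517 to 576 CPM in DMSO, 334 to 371 at 12 h, 331 to 455 at 24 h), as were the summed fibroblast markers (42.9 to 65.4 CPM in DMSO, 10.3 to 13.9 at 12 h, 16.9 to 22.2 at 24 h, with PDGFRB and DCN at or below 1 CPM), as were the summed endothelial markers (144 to 176, 23.3 to 24.2 and 46.4 to 51.7 CPM, with CDH5 at or below 1 CPM). In LNCaP the summed luminal markers were at 2260 to 2570 CPM in DMSO, 1830 to 1970 at 12 h and 2310 to 2390 at 24 h, and the fibroblast markers at 21.3 to 29.6, 19 to 126 and 20 to 21.9, where the 126 was 12 h replicate 2, mostly COL1A1. In CT1258 the 2 fibroblast markers listed went from 83.3 to 89.3 CPM in DMSO to 21.9 to 26 at 12 h and 10.7 to 14.8 at 24 h. The part of these shifts in the chaperone results was not tested. One library stood apart, LNCaP PDA-66 12 h replicate 2, whose mean distance to the other replicates of its group was 0.926 on the log2 scale against 0.621 and 0.579 for the other two, and the calls that changed without it are given beside the results.

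Stretches of the promoters are shown because HSF1 is known to act on these genes through short elements there, and they let the members be compared. RefSeq promoter windows of 300 bases (250 before and 50 after the start, GRCh38.p14) were found for all 10 members, 15 windows in all since some genes have several starts. They were searched on both strands for heat shock elements. An element of 2 units was GAA followed by TTC, or TTC followed by GAA, with 2 bases of any kind between them, and an element of 3 units carried a further GAA or TTC in alternation, again 2 bases on. A 3-unit match therefore always holds 2-unit matches. A 2-unit match lay in 9 of the 15 member windows and a 3-unit match in 4, whereas 13.5% and 0.49% of all 35116 windows held one. Capitals mark the matched bases, and the lines read 5′ to 3′ on the strand of the gene.
HSPA1A, chr6:31815417-31815464, + strand: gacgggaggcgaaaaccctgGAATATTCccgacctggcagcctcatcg
HSPA1B, chr6:31827613-31827660, + strand: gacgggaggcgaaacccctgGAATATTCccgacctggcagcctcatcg
HSPA8, chr11:123062334-123062386, − strand: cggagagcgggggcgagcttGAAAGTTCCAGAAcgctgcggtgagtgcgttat
HSPA8, chr11:123062159-123062211, − strand: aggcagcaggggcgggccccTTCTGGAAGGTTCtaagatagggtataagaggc
DNAJB1, chr19:14518417-14518494, − strand: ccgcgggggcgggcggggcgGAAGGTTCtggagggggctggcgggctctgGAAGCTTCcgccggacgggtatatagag
DNAJA1, chr9:33025256-33025302, + strand: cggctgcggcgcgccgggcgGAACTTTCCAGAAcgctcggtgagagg
HSPB1, chr7:76302471-76302518, + strand: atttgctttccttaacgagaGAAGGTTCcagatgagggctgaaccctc
HSP90AA1, chr14:102087085-102087152, − strand: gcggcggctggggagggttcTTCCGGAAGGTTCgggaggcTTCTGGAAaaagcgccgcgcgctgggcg
HSP90AB1, chr6:44247758-44247863, + strand: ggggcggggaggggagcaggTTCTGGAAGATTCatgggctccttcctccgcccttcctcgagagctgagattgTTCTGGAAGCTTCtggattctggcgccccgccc

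The 3-unit form stood in HSPA8, DNAJA1, HSP90AA1 and HSP90AB1. HSPA1A, HSPA1B, DNAJB1 and HSPB1 held the 2-unit form only. The windows of HSPH1 and BAG3 held no match to these letters. The stretch of HSPA1A shown began 126 bases before the start and that of HSPA1B 125 bases before it, with the same 8 matched bases in both. No canine promoter was read.

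**Figure D1:**
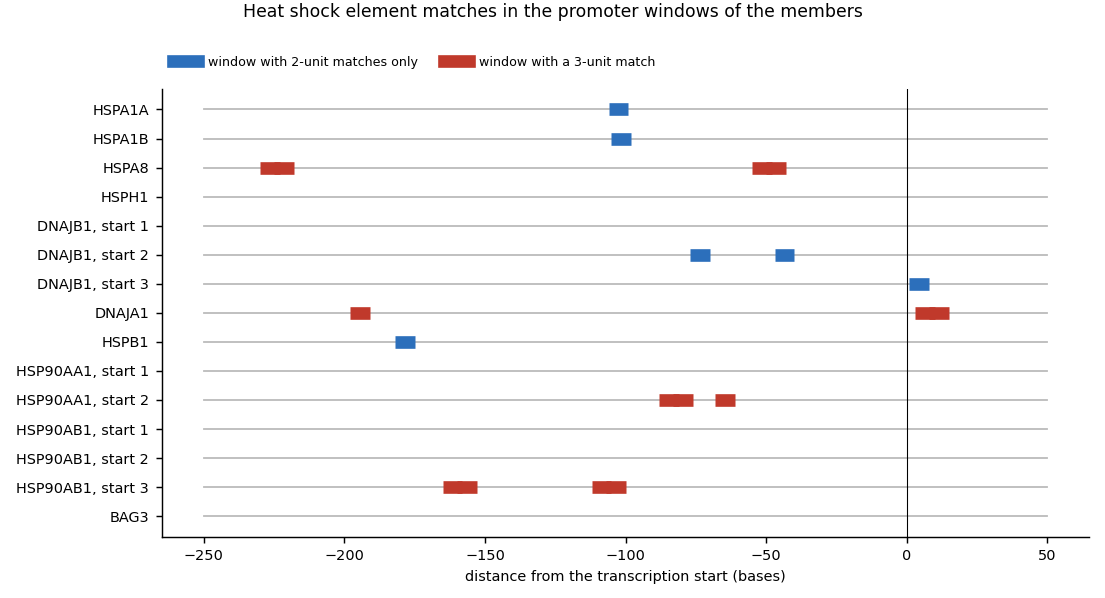
Position of heat shock element matches in the RefSeq promoter windows of the members; the x axis is the distance from the transcription start in bases and each line is 1 window, blue where it holds 2-unit matches only and red where it holds a 3-unit match. The 4 windows with a 3-unit match belong to HSPA8, DNAJA1, HSP90AA1 and HSP90AB1.

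On GRCh37, the build of the human counts, the GENCODE annotation places HSPA1A on chr6:31783320-31785723 (+ strand) and HSPA1B on chr6:31795515-31798031 (+ strand), each with 1 exon. They encode nearly the same stress-inducible HSP70, and 73.8% of the 75-base windows along the HSPA1A transcript also occur in another gene, with 73.3% for HSPA1B. How the counting treated such reads is not given in the sources used here, so the split of counts between the pair is uncertain. In addition, 36.6% of the HSPA1B exon bases lie under another annotated gene of the same strand.

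The other members share little sequence with any gene. HSPA8, the constitutive cytosolic HSP70, lies on chr11:122928197-122933938 (− strand, 9 exons, 1.92% of windows shared), and HSPH1, the HSP110 nucleotide exchange factor, on chr13:31709110-31736525 (− strand, 18 exons, none shared). DNAJB1 lies on chr19:14625581-14671203 (− strand, 3 exons) and DNAJA1 on chr9:33025271-33039905 (+ strand, 9 exons), both J-domain partners with no shared window. HSPB1, which encodes HSP27, lies on chr7:75931990-75933612 (+ strand, 3 exons, 9.39% shared). HSP90AA1, the inducible HSP90, lies on chr14:102547079-102606036 (− strand, 11 exons, 6.66% shared) and HSP90AB1, the constitutive one, on chr6:44213903-44221625 (+ strand, 12 exons, 5.6% shared). BAG3, which joins HSP70 to small heat shock proteins and autophagy, lies on chr10:121410892-121437331 (+ strand, 4 exons, none shared).

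In DMSO, without PDA-66, HSP90 and HSPA8 were the most abundant members in both human lines when levels were given per length (CPM per kilobase of transcript). In PC-3 DMSO the highest was HSP90AA1 with 756 ± 1.36 (SD, n = 2), followed by HSP90AB1 with 600.1 ± 52.6 and HSPA8 with 483 ± 32.3. In LNCaP DMSO the highest was HSPA8 with 1165 ± 128 (SD, n = 3), followed by HSP90AA1 with 765 ± 160.2. HSP90AB1 (578) and HSPB1 (484 ± 248) came next in LNCaP, and the spread of HSPB1 covered HSP90AB1. DNAJA1 was at 88.1 in PC-3 and 93.4 in LNCaP, and in PC-3 it did not differ from DNAJB1 (92.7) beyond their spread. As counted, the inducible HSP70 genes were the lowest in both lines, with HSPA1B at 14.0 in PC-3 and 19.1 in LNCaP. HSPA1A was at 12.1 in PC-3, and HSPH1 was at 20.4 in PC-3 and 32.8 in LNCaP. Since most windows of HSPA1A and HSPA1B are shared and the treatment of such reads is not given, the rank of these genes among the members is uncertain.

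HSPA1A separated the lines. The DMSO samples of PC-3 held 441 and 422 HSPA1A reads, whereas the LNCaP DMSO samples held 2, 4 and 3, and no LNCaP sample exceeded 7. HSPA1B, its neighbour, had 514 and 531 reads in PC-3 DMSO and 853, 450 and 606 in LNCaP DMSO. LNCaP thus counted the pair almost wholly on HSPA1B, while PC-3 counted both genes at about the same level. HSPA1A was removed from the LNCaP tests by the filter on low counts, and no fold is given for it there.

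**Figure D2:**
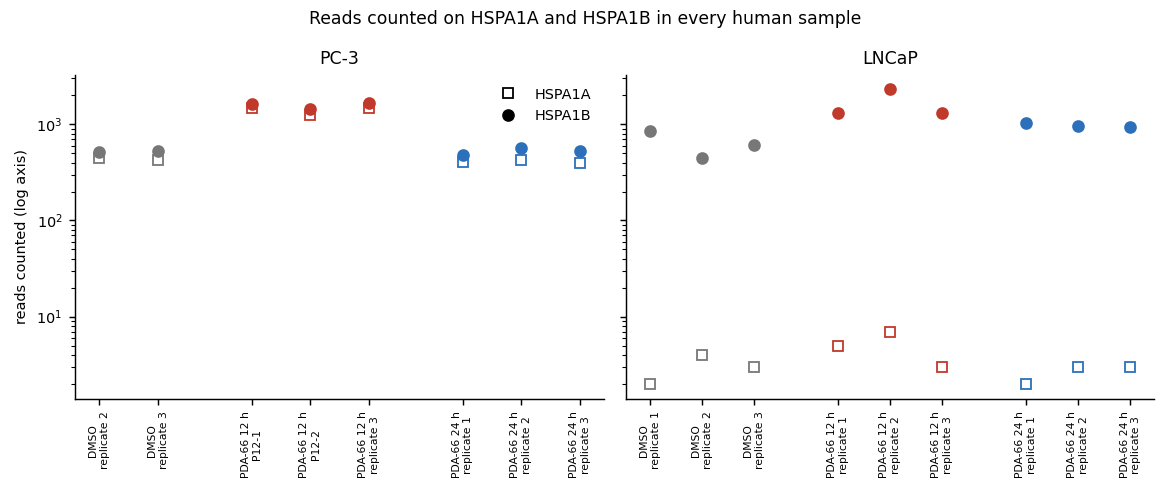
Reads counted on HSPA1A (open squares) and HSPA1B (filled circles) in every human sample, on a log axis. In PC-3 both genes lie between 397 and 1676 reads, and in LNCaP HSPA1A lies at 2 to 7 reads with HSPA1B between 450 and 2312.

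Setting the DMSO samples of the 2 lines against each other asked which members differ without PDA-66, after 24 h in the solvent. Over 15018 genes, 40.8% were called at an adjusted p under 0.001 (edgeR quasi-likelihood test, Benjamini-Hochberg adjustment), and 5 of the 10 members were, 3 higher and 2 lower in PC-3. The median member difference was -0.02 on the log2 scale, beside 0.01 for all genes. HSPA1A (adjusted p = 6.99e-13), DNAJB1 (log2 difference 1.65, SE 0.188) and BAG3 (0.95, SE 0.202) were higher in PC-3. HSPA8 (-1.24, SE 0.142) and HSPB1 (-1.56, SE 0.306) were lower. HSPB1 spread widely in LNCaP, with 589, 214 and 324 CPM, and its call was lost without either PC-3 DMSO replicate (adjusted p up to 0.00755), as that of BAG3 was when any of 8 of the 17 samples was left out (up to 0.0147). HSP90AA1 (0.01), HSP90AB1 (0.08), DNAJA1 (-0.06), HSPA1B (-0.42) and HSPH1 (-0.66) did not pass the test.

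In PC-3, 12 h of PDA-66 raised nearly the whole set. At an adjusted p under 0.001, 8 of the 10 members rose and none fell, against 27.6% of 13777 genes called, 13% higher and 14.6% lower. The median log2 fold change was 1.08 for the members and -0.01 for all genes. HSPB1 and BAG3 did not pass. All 12 h samples lay above the DMSO samples for all 10 members, and for 35.5% of all genes.

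The inducible HSP70 pair moved together. HSPA1A was at 29.8 and 28.3 CPM in DMSO, at 80.6, 81.3 and 87.7 after 12 h and at 24.1, 25.7 and 26.9 after 24 h. The 12 h samples stood far above all others, and the 24 h samples lay below DMSO. HSPA1A rose by 1.52 on the log2 scale at 12 h (SE 0.104, adjusted p = 1.05e-07). HSPA1B was at 34.7 and 35.6 CPM in DMSO, at 89.2, 94.1 and 99.3 at 12 h and at 28.3, 35.0 and 35.7 at 24 h, and rose by 1.42 at 12 h (SE 0.118, adjusted p = 5.93e-07). With the reads of the pair summed into 1 gene the 12 h change was 1.47.

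HSPH1 changed most among the members and stayed up. Its 2 DMSO samples were at 109.6 and 104 CPM, its 12 h samples at 405, 397 and 386, and its 24 h samples at 275, 306 and 294. The groups were apart at each time, with log2 fold changes of 1.89 at 12 h (SE 0.0978, adjusted p = 8.85e-09) and 1.45 at 24 h (SE 0.0961, adjusted p = 1.98e-07). HSPA8, already among the most abundant members, went from 1042 and 1145 CPM in DMSO to 2340, 2406 and 2243 at 12 h and 1219, 1501 and 1667 at 24 h. Its rise of 1.09 at 12 h passed the test (SE 0.126, adjusted p = 1.05e-05), whereas 0.42 at 24 h (SE 0.123) did not (adjusted p = 0.0128).

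The J-domain partners parted in time. DNAJB1, the main partner of inducible HSP70, was at 182 and 234 CPM in DMSO, at 405, 455 and 445 at 12 h, and at 190.3, 208 and 228 at 24 h. The 24 h samples fell inside the DMSO range, and the log2 fold changes were 1.07 (SE 0.124, adjusted p = 1.11e-05) and 0.01 (adjusted p = 0.973). DNAJA1 was at 214 and 195 CPM in DMSO, at 450.3, 456 and 437 at 12 h, and still at 308, 349 and 362 at 24 h. Its 24 h samples all exceeded DMSO, and both changes passed the test (1.13, SE 0.102, and 0.73, SE 0.101).

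HSP90AA1 went from 2445 and 2439 CPM in DMSO to 5286, 5062 and 5049 at 12 h and 4492, 4264 and 3905 at 24 h. Every treated sample lay above both DMSO samples, with log2 fold changes of 1.07 (SE 0.0981, adjusted p = 1.39e-06) and 0.79 (SE 0.0971, adjusted p = 2.91e-05). HSP90AB1 moved less, from 1628 and 1438 CPM to 2350, 2376 and 2277 at 12 h and 1934, 2010.2 and 2092 at 24 h. Its 0.61 at 12 h passed the test (SE 0.0964, adjusted p = 0.000148) but was lost without any of the 3 PDA-66 12 h samples (adjusted p up to 0.00117), and its 0.39 at 24 h did not pass (adjusted p = 0.00433).

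HSPB1 and BAG3 had the smallest 12 h values in PC-3. HSPB1 was at 116 and 134 CPM in DMSO, 173, 175 and 200.2 at 12 h and 119.9, 141 and 167 at 24 h, with a 12 h value of 0.54 (SE 0.134, adjusted p = 0.00359). BAG3 was at 143 and 114 CPM in DMSO, 159.9, 163 and 172 at 12 h and 132, 142 and 152 at 24 h, with a 12 h value of 0.36 (SE 0.112, adjusted p = 0.0142). Without DMSO replicate 2 the BAG3 value was 0.55 and passed.

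**Figure D3:**
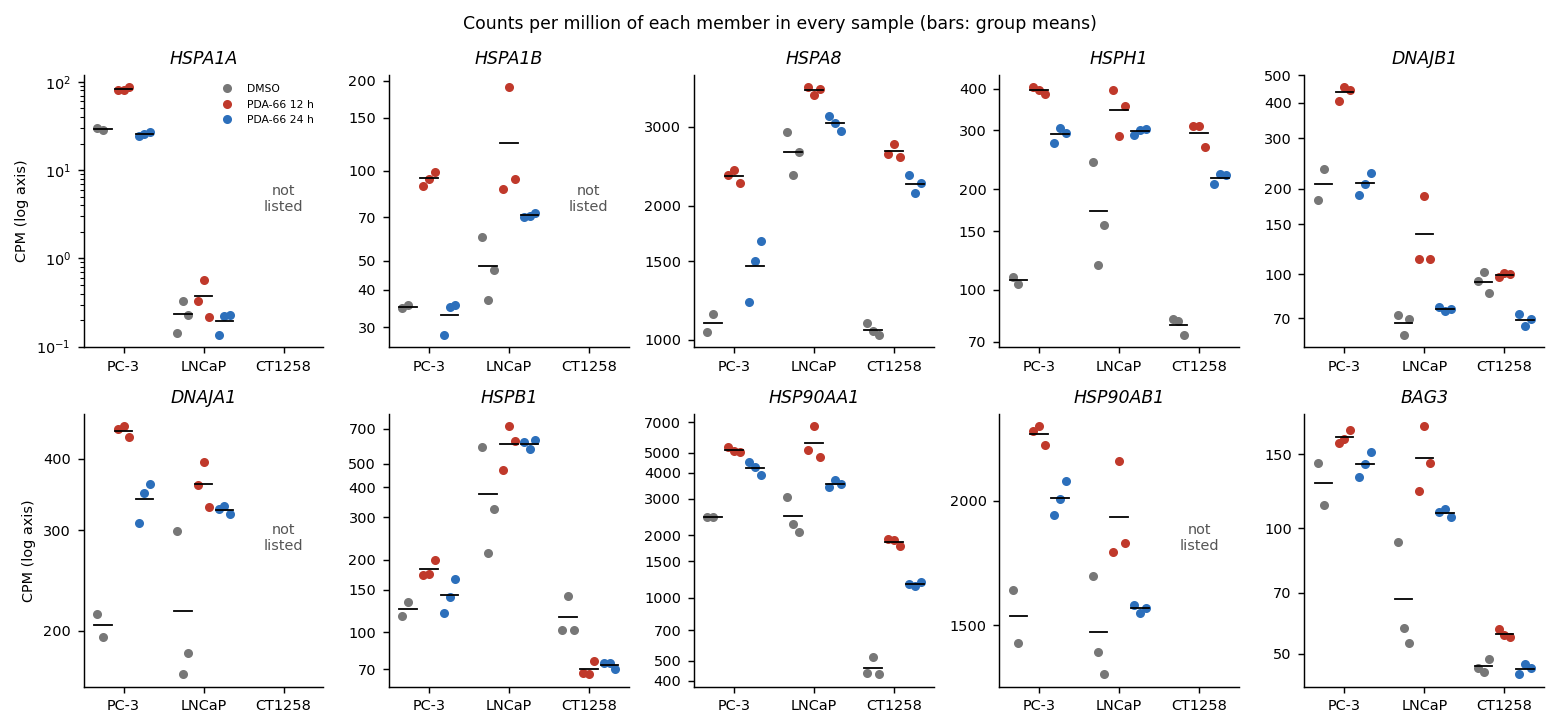
CPM of each member in every sample, on a log axis, with 1 panel per gene, the 3 cell lines along x, points for samples and bars for group means. In the PC-3 panels the 12 h points of DNAJB1, HSPA1A and HSPA1B stand above DMSO and the 24 h points are back near it, whereas HSPH1 and HSP90AA1 remain high at 24 h.

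After 24 h in PC-3 only HSPH1, HSP90AA1 and DNAJA1 were called, all higher, with 19.3% of genes called, 8.88% higher and 10.5% lower. The median member value was 0.29, beside -0.01 for all genes. The direct comparison of 24 h with 12 h called 3 members, all lower at 24 h, against 1.41% of genes called and 0.631% called lower. These were HSPA1A (-1.70, SE 0.0906, adjusted p = 4.44e-07), HSPA1B (adjusted p = 3.45e-06, SE 0.103) and DNAJB1 (-1.06, SE 0.109, adjusted p = 6.02e-05). All 10 members were lower at 24 h with no overlap of the groups, as were 18.7% of all genes, and the other 7 lay between -0.67 for HSPA8 (adjusted p = 0.00178) and -0.21 for BAG3 (adjusted p = 0.204). Without DMSO replicate 2 or replicate 3, which enter the shared spread, HSPA8 and HSPH1 were called as well.

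In LNCaP the members were also higher at 12 h, but the replicates spread more and none passed at an adjusted p under 0.001. The biological coefficient of variation was 0.24 in LNCaP, 0.0971 in PC-3 and 0.1 in CT1258. The study had left out 1 PC-3 DMSO sample as an outlier, whereas LNCaP 12 h replicate 2 was kept here, so these spreads were not taken on like terms. Of 13156 LNCaP genes 0.0076% were called, which is 1 gene, and it was lower. At the same threshold the study, with edgeR 3.14.0, reported more LNCaP genes at both times. The reason for this difference was not tested, and the number of members called here depended on the test. Of the 9 members tested, 0 were called by edgeR and 8 had an unadjusted p under 0.05, as 30% of genes did. DESeq2 called 4 members and 4.71% of genes, and limma voom with sample weights 8 members and 13.9% of genes. All 12 h samples lay above DMSO for 8 of the 9 members and for 13.5% of genes. At an adjusted p under 0.05 edgeR called 6 members, all higher, against 9.14% of genes and 4.52% called higher. The median member value was 1.01, beside 0.03 for all genes. Without 12 h replicate 2, edgeR called 2 members at 0.001, DNAJB1 (0.75, adjusted p = 0.000918) and HSP90AA1 (1.01, adjusted p = 0.000948), and 261 genes in all.

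HSPA1B was at 60.2, 37.0 and 46.8 CPM in LNCaP DMSO, at 86.7, 190 and 93.5 at 12 h and at 69.8, 70.7 and 72.1 at 24 h. Replicate 2 was the high 12 h sample, yet all 3 exceeded DMSO. The 12 h value was 1.36 (SE 0.305, adjusted p = 0.0264), and 0.91 without that library (adjusted p = 0.00314). DNAJB1 had the same shape, with 71.6, 61.1 and 69.5 CPM in DMSO, 113, 188 and 113 at 12 h and 76.7, 74.2 and 75.6 at 24 h. Its 12 h value was 1.03 (SE 0.21, adjusted p = 0.0195) and its 24 h value 0.16 (adjusted p = 0.732).

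HSP90AA1 in LNCaP was at 3056, 2267 and 2083 CPM in DMSO, 5156, 6688 and 4781 at 12 h and 3404, 3702 and 3539 at 24 h. Its 12 h value of 1.17 had the smallest adjusted p of the members (0.00818, SE 0.178). HSP90AB1 was at 1682, 1412 and 1339 CPM in DMSO, 1776, 2194 and 1815 at 12 h and 1573, 1544 and 1562 at 24 h, a 12 h value of 0.38 (adjusted p = 0.106). All 12 h samples of both genes lay above their DMSO samples.

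BAG3 was at 92.4, 57.6 and 53.0 CPM in LNCaP DMSO, 122, 175 and 143 at 12 h and 109, 111 and 106 at 24 h. Its 12 h value was 1.12 (SE 0.229, adjusted p = 0.0199). DNAJA1 was at 299, 168 and 183 CPM in DMSO, 359, 394 and 329 at 12 h and 327, 331 and 320.03 at 24 h (12 h value 0.74, adjusted p = 0.0598). For both genes DMSO replicate 1 was the high control.

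HSPH1 in LNCaP was at 241, 119 and 156 CPM in DMSO, 396, 289 and 354 at 12 h and 292, 302 and 303 at 24 h, with a 12 h value of 1.01 (SE 0.243, adjusted p = 0.0335). HSPA8 was at 2924, 2347 and 2642 CPM in DMSO, 3689, 3547 and 3641 at 12 h and 3178, 3063 and 2945 at 24 h, with a 12 h value of 0.46 (adjusted p = 0.0412). HSPB1 was the only tested member whose DMSO and 12 h samples overlapped, with 589, 214 and 324 CPM in DMSO against 472, 717 and 623 (0.68, adjusted p = 0.18).

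At 24 h in LNCaP edgeR called 0 of 9 members and 0% of genes, and at an adjusted p under 0.05 it called 2.92% of genes and no member. At an unadjusted p under 0.05 there were 4 members and 19.8% of genes, DESeq2 called 0 members and 2.17% of genes, and limma voom 6 members and 11.2% of genes. Values ran from 0.08 for HSP90AB1 to 0.80 for HSPH1 (adjusted p = 0.106), with a median of 0.56 beside -0.01 for all genes. For 24 h against 12 h edgeR also called 0 of 9 and 0% of genes (3 members and 6.36% of genes with an unadjusted p under 0.05, DESeq2 0 members and 0.0076% of genes, limma voom 2 and 1.44%). The most negative values there were -0.87 for DNAJB1 and -0.80 for HSPA1B, both with an adjusted p of 0.643. Without 12 h replicate 2 they were -0.58 and -0.35.

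In CT1258, PDA-66 raised 3 of the 6 listed members strongly and left HSPB1 lower. At 12 h 4 of the 6 were called, 3 higher and 1 lower, against 44.3% of 9886 genes called, 22.2% higher and 22.1% lower. At 24 h 5 were called, 3 higher and 2 lower, against 33.8% of genes, 16.6% higher and 17.2% lower. The median member values were 0.79 and 0.53, beside 0 and -0.01 for all genes. With the deeper DMSO counts thinned to the depth of the treated samples, 4 and 5 members were called again.

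HSP90AA1 had its largest change in the canine cells. It was at 434, 522 and 429 CPM in DMSO, 1919, 1893 and 1780.2 at 12 h and 1172, 1143 and 1189 at 24 h. The 3 groups were well apart, with log2 fold changes of 2.01 (SE 0.0935, adjusted p = 1.53e-09) and 1.34 (SE 0.0918, adjusted p = 6.21e-08). HSPH1 went from 81.8, 80.6 and 73.3 CPM to 309, 309 and 267 at 12 h and 208, 222 and 221 at 24 h (1.91, SE 0.0874, and 1.46, SE 0.0868). HSPA8 went from 1091, 1045 and 1025 CPM to 2615, 2746 and 2572 at 12 h and 2343, 2137 and 2243 at 24 h (1.33, SE 0.0817, and 1.09, SE 0.0813).

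DNAJB1 behaved otherwise in the canine cells. It was at 94.6, 102 and 85.9 CPM in DMSO, 97.4, 101 and 100.4 at 12 h and 72.2, 66.0 and 69.6 at 24 h. The 12 h samples lay within the DMSO range (0.08, SE 0.0844, adjusted p = 0.419). At 24 h DNAJB1 fell by 0.44 (SE 0.0857, adjusted p = 0.000493), but the call was lost when any sample other than DMSO replicate 2 or 3 was left out (7 of 9, adjusted p up to 0.0049).

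HSPB1 in CT1258 was at 102, 142 and 102 CPM in DMSO, 67.8, 66.8 and 75.6 at 12 h and 74.5, 74.6 and 70.3 at 24 h. All treated samples lay below all DMSO samples, of which replicate 2 was the high one. HSPB1 fell by 0.72 at 12 h (SE 0.121, adjusted p = 0.000116) and by 0.66 at 24 h (SE 0.121, adjusted p = 0.000328). The 12 h call was lost without 12 h replicate 1 or 2 (adjusted p = 0.0012 at most) and the 24 h call without any 24 h replicate (up to 0.00274). BAG3 was at 46.4, 45.3 and 48.5 CPM in DMSO, 57.3, 55.5 and 54.8 at 12 h and 44.7, 47.2 and 46.4 at 24 h, and neither value passed (0.26, adjusted p = 0.014, and -0.02).

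From 12 h to 24 h in CT1258, 1 of the 6 members was called, HSP90AA1 (lower at 24 h, SE 0.0906, adjusted p = 0.000292), against 2.13% of genes called and 1.28% called lower. That call was lost without any of the 12 h or 24 h samples (6 of 9 fits, adjusted p up to 0.00344). Without DMSO replicate 2, 3 members were called, since DNAJB1 (-0.52, adjusted p = 0.00139 with all samples) and HSPH1 (adjusted p = 0.00293) were added. HSPA8 was at -0.24 (adjusted p = 0.0523) and HSPB1 at 0.06. The canine table also had an entry HSP71_CANFA, which is no member and was chosen after its values were seen. It was at 42.3, 53.5 and 43.5 CPM in DMSO, 57.5, 68.1 and 69.0 at 12 h and 54.6, 51.9 and 57.0 at 24 h, with a 12 h value of 0.48 (SE 0.11, adjusted p = 0.00143).

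**Figure D4:**
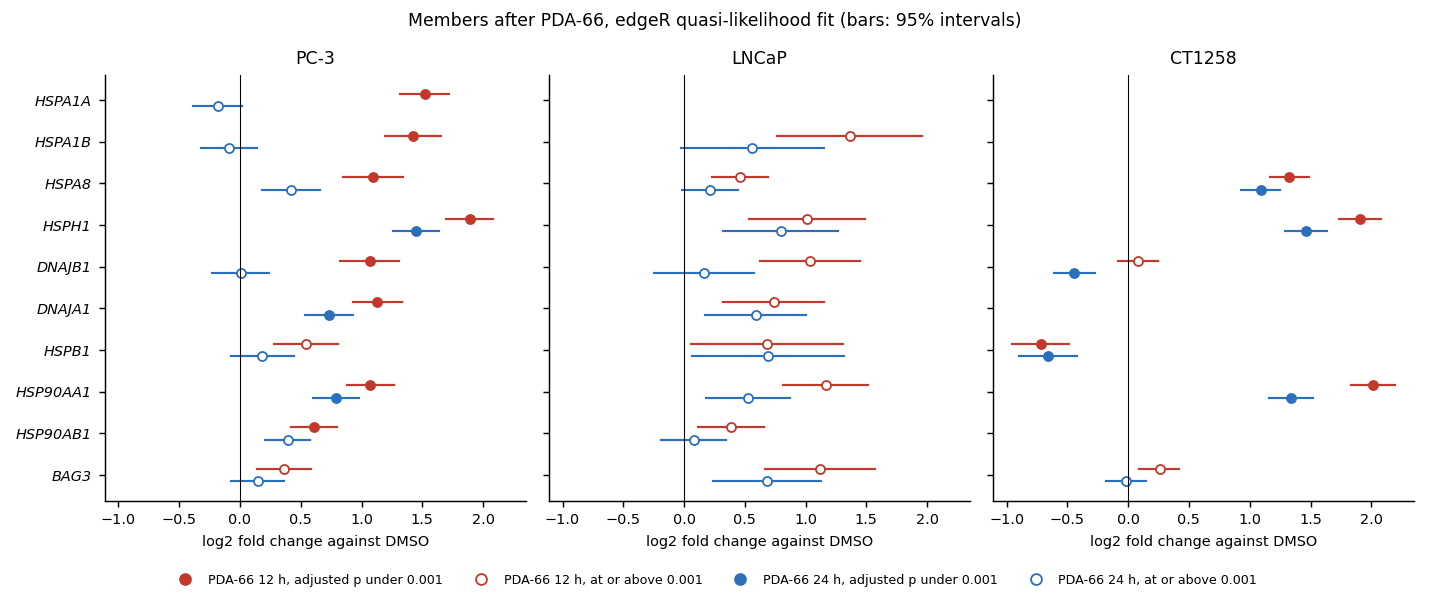
Log2 fold change of each member against DMSO in PC-3, LNCaP and CT1258, at 12 h and 24 h. Bars are approximate 95% intervals from the SE and are narrower than the F test would give. Filled points had an adjusted p under 0.001 and open points did not. Points for 12 h reach 1.89 in PC-3 (HSPH1) and 2.01 in CT1258 (HSP90AA1), HSPB1 lies below 0 in CT1258, and no LNCaP point is filled.

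The members' summed share of all counts followed the same course in each line. This sum is weighted to the most abundant members, such as HSP90AA1 and HSPA8, and does not give the course of each member. HSPB1 was lower after PDA-66 in CT1258, and HSPA1A, HSPA1B and DNAJB1 were back near DMSO at 24 h in PC-3. In PC-3 the summed share was 0.57% ± 0.0033 (SD, n = 2) in DMSO, 1.16% ± 0.016 (n = 3) at 12 h and 0.906% ± 0.0083 at 24 h. In LNCaP it was 0.77% ± 0.13, 1.23% ± 0.02 and 0.975% ± 0.0062, with the lowest and highest DMSO sample at 0.681% and 0.922%. The 6 canine members took 0.183% ± 0.004, 0.509% ± 0.008 and 0.38% ± 0.0073. The groups did not overlap in any line, and in bulk RNA fewer cells with a transcript and less of it per cell cannot be told apart.

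**Figure D5:**
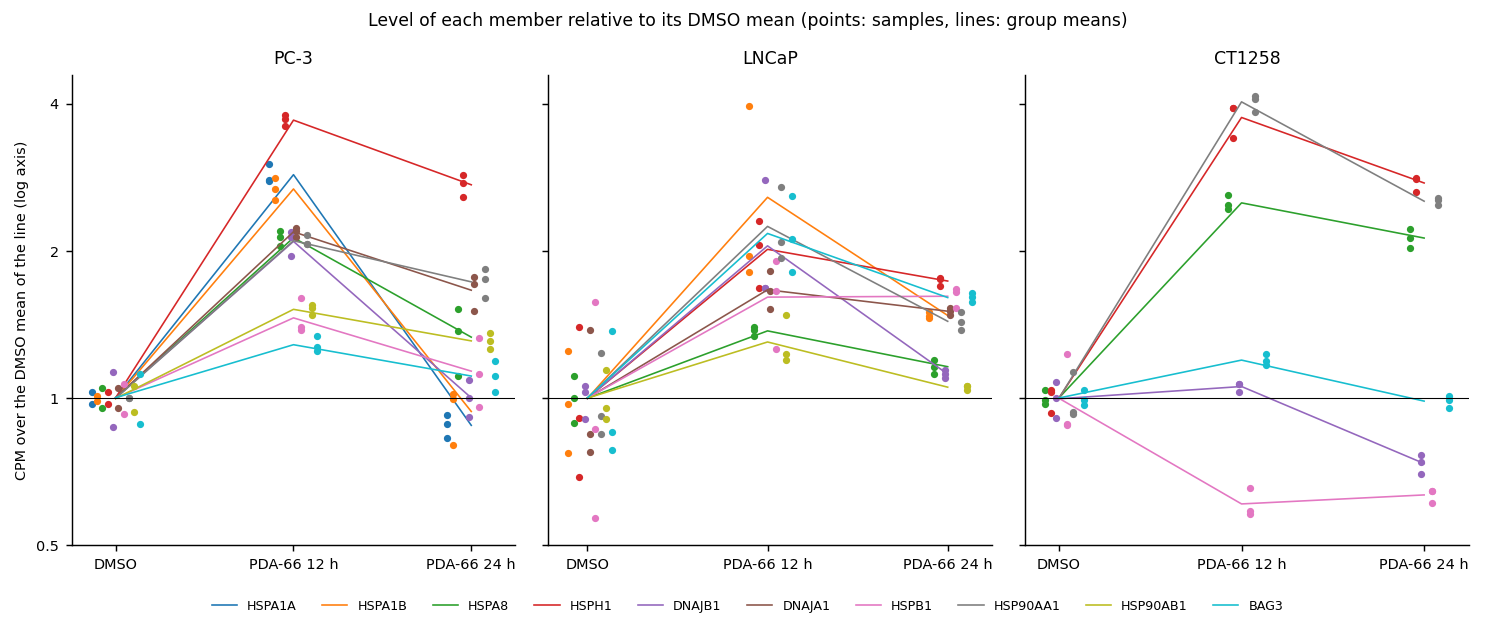
Level of each member relative to its DMSO mean in the same line, on a log axis, for DMSO, 12 h and 24 h; points are samples and lines join group means, and HSPA1A is left out in LNCaP, where 2 to 7 reads were counted. DNAJB1 and HSPA1B return to near 1 at 24 h in PC-3, and HSPH1 stays above 2 at 24 h in PC-3 and CT1258.

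Whether the lines differed in their response was tested as a difference of log2 fold changes in 1 fit over the 3 lines (11736 genes present in all), for the 6 members listed in every table. CT1258 had the larger HSP90AA1 response. At 12 h its fold change exceeded that of PC-3 (PC-3 minus CT1258 -0.96, SE 0.193, adjusted p = 0.000591) and that of LNCaP (-0.90, SE 0.184, adjusted p = 0.000541). HSPA8 responded less in LNCaP than in CT1258 at 12 h (-0.92, SE 0.157, adjusted p = 9.92e-05) and at 24 h (-0.90, SE 0.157, adjusted p = 0.000317).

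These were the calls among the 6 members, 1 for PC-3 against CT1258 at 12 h (9.33% of genes called), 2 for LNCaP against CT1258 at 12 h (12.8%) and 1 at 24 h (3.44%). Leaving out 1 of the 26 samples at a time, the HSP90AA1 difference lost its call in 16 fits for PC-3 (adjusted p up to 0.00555) and in 18 for LNCaP (up to 0.00691). The HSPA8 difference lost it in 1 fit at 12 h, without CT1258 12 h replicate 2 (0.00132), and in 14 at 24 h (up to 0.00301). HSPH1 responses of PC-3 and CT1258 differed by -0.03 at 12 h, with a 95% interval (from the SE) of -0.518 to 0.448, and by -0.02 at 24 h (-0.507 to 0.46). DNAJB1 (0.97, adjusted p = 0.00164) and HSPB1 (1.25, adjusted p = 0.00824) were higher in the PC-3 response than in the CT1258 response at 12 h without passing the test, and 3 of the 6 members and 40.1% of genes had an unadjusted p under 0.05.

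For PC-3 against CT1258 at 24 h edgeR called 0 of the 6 members and 4.79% of genes, with HSPA8 at -0.68 (adjusted p = 0.0046), 3 members and 33.1% of genes at an unadjusted p under 0.05, and 2 members and 16.2% of genes called by limma voom. Between PC-3 and LNCaP it called 0 members at 12 h (3.57% of genes) and 0 at 24 h (1.23%), with 3 and 2 members at an unadjusted p under 0.05 (33.7% and 23.5% of genes). There limma voom called 1 member and 7.91% of genes at 12 h and 0 and 4.65% at 24 h. Without LNCaP 12 h replicate 2, which enters the shared spread, some calls were added. DNAJB1 was then called for PC-3 against CT1258 at 12 h (0.95, adjusted p = 6.42e-06, 2712 genes called in all) and HSPA8 at 24 h (-0.69, adjusted p = 0.000567, 1832 genes). For LNCaP against CT1258 at 24 h HSP90AA1 (-0.85, adjusted p = 9.24e-05) and HSPB1 (1.31, adjusted p = 0.000871) were added, with 1867 genes called. With all samples, PC-3 minus LNCaP at 12 h was 0.07 for DNAJB1 (interval -0.352 to 0.498) and -0.06 for HSP90AA1 (-0.438 to 0.323). HSPH1 was at 0.91 in the same comparison (adjusted p = 0.0118). A fit of the human samples alone, chosen after seeing the data, gave 0.12 for HSPA1B at 12 h (interval -0.574 to 0.811), 0.28 for HSP90AB1 and 0.45 for DNAJA1, and the smallest adjusted p of a member at 12 h was 0.0219 (HSPA8), with 1.53% of 15018 genes called at 12 h and 0.266% at 24 h.

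The partners and relatives of the members were followed as fixed lists, with genes counted at an adjusted p under 0.001. The shares of all genes are to be read beside these counts. In PC-3 13% were called higher and 14.6% lower at 12 h, and 8.88% and 10.5% at 24 h. In CT1258 the shares were 22.2% and 22.1% at 12 h, and 16.6% and 17.2% at 24 h. In either direction, 27.6% and 19.3% of genes were called in PC-3 at 12 h and 24 h, and 44.3% and 33.8% in CT1258. Several list counts in either direction lay near these shares. They include HSP70 co-chaperones in PC-3 at both times, and endoplasmic reticulum and mitochondrial chaperones in PC-3 at 24 h. In CT1258 they include the chaperonin at 12 h and HSP90 co-chaperones at 24 h. Such counts are not by themselves results about the lists. Of the other HSP70 and HSP110 genes, 3 of 6 rose and 1 fell in PC-3 at both times, and 3 of 4 rose in CT1258 at both times. HSPA4, an HSP110-type exchange factor, rose from a mean of 153 CPM in PC-3 DMSO to 292 at 12 h and 267 at 24 h, and from 369 to 747 and 568 in CT1258. HSPA2, an HSP70 best known from testis, rose from 5.89 to 24.1 and 15.2 CPM in PC-3. HSPA6, a strictly stress-inducible HSP70, moved the other way in PC-3, from 14.4 CPM in DMSO to 3.83 at 12 h, and fell by 1.92 on the log2 scale at 12 h.

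Among HSP70 co-chaperones 3 of 14 rose and 1 fell in PC-3 at 12 h (1 and 1 at 24 h), and 5 of 11 rose and 2 fell in CT1258 (4 and 2 at 24 h). STIP1, which links HSP70 to HSP90, rose in both, with log2 fold changes at 12 h of 0.97 in PC-3 and 1.16 in CT1258. BAG2 (1.00 at 12 h) and ST13 (0.87) rose in CT1258. Of the HSP90 co-chaperones 6 of 10 rose in PC-3 at both times and none fell, with a median of 0.66 at 12 h, and in CT1258 5 of 9 rose and 2 fell at 12 h and 2 rose and 1 fell at 24 h. CHORDC1, an HSP90 partner, went from 21.3 to 79.4 and 60.6 CPM in PC-3 (1.90 at 12 h) and from 52.4 to 96.4 and 76.2 CPM in CT1258. FKBP4 rose by 0.67 in PC-3 and by 0.80 in CT1258 at 12 h (0.23 in CT1258 at 24 h, adjusted p = 0.0416), and PTGES3, the p23 co-chaperone, by 0.93 in CT1258.

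The cytosolic chaperonin, which folds actin and tubulin, moved in the same direction. In PC-3 6 of its 8 genes rose at both times with medians of 0.63 and 0.52, and in CT1258 3 of 7 rose at both times. CCT6A rose most in CT1258, from 50.2 to 230.4 and 196 CPM (2.20 and 1.97), and by 0.93 at 12 h in PC-3. CCT2 rose by 0.65 in PC-3 and 1.30 in CT1258 at 12 h, and TCP1 by 0.94 in PC-3.

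The other small heat shock protein genes split. In CT1258 CRYAB, the alpha-B crystallin gene, rose from 38.7 to 97.1 and 122 CPM (1.33 and 1.66), while HSPB6 fell by 1.66 and by 1.94, so that of 2 tested 1 rose and 1 fell at both times. In PC-3 1 of 2 rose, HSPB8, from 3.13 to 8.51 and 8.34 CPM. Of the mitochondrial chaperones 1 of 6 was called higher in PC-3 at both times (HSPD1, 1199 to 2111 and 1891 CPM). In CT1258 1 of 5 was called higher (HSPA9) and 1 lower (TRAP1, 250.3 to 147 CPM) at 12 h, near the 22.2% and 22.1% of all genes.

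Chaperones of the endoplasmic reticulum mostly fell in the canine cells. In CT1258 5 of 9 fell and 1 rose at both times, with medians of -1.15 and -0.61. CALR, the calreticulin gene, went from 1956 to 532 and 883 CPM and fell by 1.88 at 12 h, HYOU1 fell by 1.17 and PDIA4 by 1.15. In PC-3 edgeR called 0 of 11 at 12 h (2 with an unadjusted p under 0.05, median -0.09), and 2 fell at 24 h.

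No heat shock factor gene was called higher. In CT1258 2 of 3 fell at both times, with HSF1, the main stress factor, at 71.8, 29.8 and 43.1 CPM in DMSO, 12 h and 24 h (fell by 1.27 and by 0.74). In PC-3 HSF1 was at -0.19 and did not pass (adjusted p = 0.17), and HSF4 fell by 1.43 at 12 h. HSBP1, which binds HSF1, fell by 0.93 at 12 h in CT1258. Of 6 other genes of the heat shock response, 5 fell and 1 rose in CT1258 at 12 h, among them SQSTM1, an autophagy receptor (1007 to 310 CPM), and the polyubiquitin gene UBB (fell by 0.81), and in PC-3 1 rose and 1 fell at both times.

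In LNCaP edgeR called 0 of the 64 tested genes of these lists at 0.001 at either time, beside 0.0076% and 0% of all genes. With an unadjusted p under 0.05 there were 22 at 12 h and 13 at 24 h, beside 30% and 19.8% of all genes. At an adjusted p under 0.05 there were 6 and 2, beside 9.14% and 2.92% of all genes, so these counts lay near the shares of all genes. At 12 h 2 of the 10 HSP90 co-chaperones and 2 of the 8 chaperonin genes were among the 6, with list medians of 0.64 and 0.47. FKBP4 was among the former (0.74, adjusted p = 0.0454), and CHORDC1 was at 95.6, 172 and 199 CPM with 0.85 at 12 h (adjusted p = 0.124).

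Since DNAJB1 is a single-copy gene with no shared window, it served to ask which genes moved with it over the 17 human samples, with each line centred on its own mean. Pearson's r of log2 CPM ranked 8665 other genes and is a description, since the points share libraries and treatment. HSPA1B stood first with 0.965 (0.982 within PC-3 and 0.946 within LNCaP). HSPA1A was not ranked, since its mean in LNCaP lay below 10 CPM. The ranking was not repeated without LNCaP 12 h replicate 2, the LNCaP sample in which both DNAJB1 and HSPA1B were highest. The 5 genes outside the members with the largest r were the metallothionein genes MT1X (0.933) and MT2A (0.929), JMJD6 (0.929), VASN (0.925) and STK40 (0.909). HSPA8 ranked 33 with 0.839, followed among the members by HSP90AB1 (0.81), HSP90AA1 (0.786), DNAJA1 (0.709), BAG3 (0.687), HSPB1 (0.61) and HSPH1 (0.608).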

How the data were processed

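The RNA-seq analysis started from the tables of whole read counts per gene that the authors deposited, which carry no normalization. Per the study's methods and the submitters' processing notes, human reads were mapped with STAR 2.3.1s to hg19 and counted on RefSeq genes, and canine reads were mapped with BWA to CanFam3.1 and counted with an R package. The notes also name edgeR 3.14.0. The use of strand and the treatment of reads matching several genes are not given in the sources used here. Symbols of human and canine genes were taken as listed, and 14436 were the same in all tables.

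Counts were read per cell line, and in 1 PC-3 sample trailing semicolons were stripped. Genes passing filterByExpr (13777 in PC-3, 13156 in LNCaP, 9886 in CT1258) were scaled by TMM and tested with edgeR 4.0.16 (quasi-likelihood F test, R 4.3.3) in 1 fit of the 3 groups of each line, with Benjamini-Hochberg adjustment over all genes and a threshold of 0.001, the study's threshold. SE is the log2 fold change divided by the square root of F. The prior count for log2 CPM was 2. DMSO samples of the human lines were compared in 1 fit, and responses of the lines in a fit over the 26 samples. limma 3.58.1 (voom) and DESeq2 1.42.0 were alternatives, with other scalings, filters, thresholds and samples left out. The steps were tested on simulated data.

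All members were named, with up to 3 genes of each other list with the smallest adjusted p against DMSO, and the 5 genes most like DNAJB1 among those of at least 10 mean CPM in both human lines. The members and lists were chosen with earlier results of these data known. One PC-3 DMSO sample was not analysed here, and some items of the lists are not reported here. The description of a PC-3 12 h column fits 2 samples, so these columns were used as the group without replicate numbers. The replicate numbers did not pair samples: of 9 correlations of deviations, 1 in LNCaP and 1 in CT1258 exceeded 0.1. Replicates of a group differed beyond sampling noise. Gene models and shared 75-base windows were read on GRCh37 and promoter windows on GRCh38.p14, and no canine genome was used.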

Additional observations from a re-analysis of the deposited data

Results flagged for a closer look

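Responses of 2 members differed between cell lines by a test of the difference itself in the fit over the 3 lines. The HSP90AA1 log2 fold change at 12 h was lower in PC-3 than in CT1258 (-0.958) and lower in LNCaP than in CT1258 (-0.9). The HSPA8 log2 fold change was lower in LNCaP than in CT1258 at 12 h (-0.919) and at 24 h (-0.904). The lines differ in species, medium and gene annotation, which cannot be told apart from the line.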

How the results depend on the processing

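The counts of members called at an adjusted p under 0.001 are given first. With a threshold of 0.05 they were 5 for PC-3 24 h, 6 for PC-3 24 h against 12 h, 6 for LNCaP 12 h, 4 for CT1258 24 h against 12 h, and for the responses 3 for PC-3 against LNCaP at 12 h, 3 and 2 for PC-3 against CT1258 at 12 h and 24 h, and 6 and 6 for LNCaP against CT1258. DESeq2 called 6 for PC-3 24 h against 12 h, 4 for LNCaP 12 h and 3 for CT1258 24 h against 12 h. limma voom called 10 for PC-3 24 h against 12 h, 8, 6 and 2 for LNCaP 12 h, 24 h and 24 h against 12 h, 4 for CT1258 24 h against 12 h, 1 for the response of PC-3 against LNCaP at 12 h, 3 and 2 for PC-3 against CT1258, and 6 and 6 for LNCaP against CT1258. Fits on only the groups compared called 5 for PC-3 24 h against 12 h, 3 for CT1258 24 h and 3 for CT1258 24 h against 12 h. For that last comparison library size alone, no filter and thinned DMSO counts each called 2, and without a filter the response of PC-3 against CT1258 at 12 h had 0. The share of all genes called changed with the tool and threshold too. In LNCaP at 12 h it was 0.0076% by edgeR, 9.14% by edgeR at 0.05, 4.71% by DESeq2 and 13.9% by limma voom. A larger count in this paragraph is therefore not by itself a result about the members.

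Leaving out 1 sample at a time gave 7 to 9 members for PC-3 12 h, 3 to 4 for PC-3 24 h, 3 to 5 for PC-3 24 h against 12 h, 0 to 2 for LNCaP 12 h, 3 to 4, 3 to 5 and 0 to 3 for CT1258 12 h, 24 h and 24 h against 12 h, 3 to 5 between the DMSO samples of the human lines, 0 to 4 and 0 to 3 for LNCaP against CT1258, 0 to 2 and 0 to 1 for PC-3 against CT1258, and 0 to 1 for PC-3 against LNCaP at 12 h. The cause was not tested, beyond the fewer samples in each fit.

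Values that changed sign lay near 0. For other settings these were DNAJB1 in PC-3 at 24 h under voom (0), HSPA1B in PC-3 at 24 h with the replicate block (0.018), HSPB1 in LNCaP at 24 h against 12 h with DESeq2 size factors (-0.006), DESeq2 (-0.006) and the replicate block (-0.019), DNAJA1 between DMSO samples under voom (0.106), HSP90AA1 between DMSO samples without a filter (-0.004), and HSPH1 in PC-3 against CT1258 without a filter (0.041 at 12 h, 0.051 at 24 h). With 1 sample left out, BAG3 ran from -0.05 to 0.007 in CT1258 at 24 h and from -0.004 to 0.236 for PC-3 against CT1258 at 12 h. Between DMSO samples DNAJA1 ran from -0.216 to 0.246, HSP90AA1 from -0.098 to 0.192 and HSP90AB1 from -0.014 to 0.182. DNAJB1 ran from -0.159 to 0.217 in PC-3 at 24 h and, for PC-3 against LNCaP, from -0.129 to 0.323 at 12 h and from -0.333 to 0.034 at 24 h. HSP90AA1 ran from -0.305 to 0.066 and HSPB1 from -0.648 to 0.17 for PC-3 against LNCaP at 12 h, HSPA1B from -0.154 to 0.007 in PC-3 at 24 h, HSPB1 from -0.145 to 0.149 in LNCaP at 24 h against 12 h, and HSPH1 from -0.081 to 0.056 at 12 h and -0.062 to 0.07 at 24 h for PC-3 against CT1258.

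The replicate numbers of LNCaP and CT1258 did not pair samples (correlations -0.42 to 0.185 and -0.189 to 0.153). With the replicate block, 3 members were called in PC-3 at 24 h, 0 in each LNCaP comparison, and 4, 4 and 1 in CT1258 at 12 h, 24 h and 24 h against 12 h. For PC-3 at 12 h no paired analysis was possible because its columns carry no replicate number of their own. The main limits are the 2 PC-3 DMSO samples, the single DMSO time, the spread of LNCaP, the reads shared by HSPA1A and HSPA1B, and the 4 members with no canine row.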
